A study of Rattus norvegicus with 20 samples.

Results

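Translation initiation factor genes were taken from the count table as the protein-coding rows whose symbol begins with Eif and a digit from 1 to 6, with the eIF2 kinases (Eif2ak) left out. The rule found 50 rows of 39747, which carry 48 distinct symbols because Eif5 stands on 3 rows. RNA was sequenced from dorsal root ganglia (DRG), the clusters of sensory neuron cell bodies beside the spinal cord, of wild-type female Sprague-Dawley rats. The study's methods describe the rats as 8–10 weeks old, ahead of 1 week of acclimatization and the diets. The rats ate a soy oil diet (SOD) or a fish oil diet (FOD) rich in omega-3 fatty acids for 4 weeks, and then had chronic constriction injury (CCI, loose ligatures around the left sciatic nerve) or a sham operation (CT, the nerve exposed and left untied). Left DRG gave 4 libraries of SOD-CT, 3 of FOD-CT, 3 of SOD-CCI, and 4 of FOD-CCI, and the contralateral libraries came from right, uninjured DRG (3 rats of SOD-CCI and 3 of FOD-CCI). The study dates the collection to 1 week after surgery, although the submitters' design text has the diets continue for 4 weeks after it. The 20 libraries came from 14 rats with no pooling of animals stated, and a whole DRG mixes neurons, glia, and other cells, so fewer cells of a type and less RNA per cell cannot be told apart.

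Initiation factors bring the small ribosomal subunit, the initiator tRNA, and the mRNA together and pick the start codon. The eIF2 complex delivers the initiator tRNA and is recharged with GTP by eIF2B, eIF3 holds the small subunit, eIF4F (the cap-binding protein eIF4E, the helicase eIF4A, and the scaffold eIF4G) loads capped mRNA, and eIF5B joins the large subunit. Phosphorylation of eIF2 lowers the supply of initiator tRNA under stress, and the eIF4E-binding proteins restrain cap-dependent loading. In sensory neurons, this control of translation is studied in connection with nerve injury and pain.

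The 20 libraries held 22547190 to 54437581 counts, and 48 of the 50 rows passed the filter on low counts in every fit. The other two rows, Eif4e1b with 0 to 35 counts per library and an Eif5 row without introns with 1 to 41 counts, were not tested. All 12 neuron markers, 6 satellite glia markers, and 7 Schwann cell markers were above 1 in the median library in counts scaled to the library total (CPM), although the neuron genes Isl1 and Scn10a were at 0 in at least 1 library. The neuron markers summed to 5090 CPM in FOD-CCI-contra 1 and to 14430 to 37080 elsewhere. In markers of another tissue, 4 libraries stood apart. In SOD-CT 1, 12 skeletal muscle genes took 13.2% of all counts, and their summed level was 204800 CPM, against 6.279 to 31310 in the other 19 libraries. Spinal cord genes (8) summed to 2795 to 3975 CPM in FOD-CT 1, FOD-CCI 1, and FOD-CCI-contra 1, and to at most 102.3 CPM elsewhere. The library labelled FOD-CCI 1 held 389.6 CPM of 12 nerve injury genes, within the 322.8 to 735.9 CPM of the sham and contralateral libraries and below the 1475 to 3959 CPM of the 6 other CCI libraries, so its injury markers go against its label. Results are therefore given with and without SOD-CT 1, and, where it matters, without FOD-CCI 1.

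Levels between genes were compared as CPM scaled by the trimmed mean of M values (TMM) and divided by gene length in kilobases. On this scale, the mean level of the 48 tested rows ran from 6.23 to 568, and together all 50 rows took 0.732% to 0.928% of the counts of a library. Eif4a2, an eIF4A helicase, led with a mean of 568 CPM per kilobase over the 20 libraries, ahead of Eif5a, the hypusine-containing factor that helps ribosomes through difficult peptide bonds, at 527, and Eif1, which guards start codon choice, at 476. These 3 genes held 32.4% to 44.2% of the summed level per length of all 50 rows (median 35.5%). The order among them varied by library: Eif4a2 (367 to 919 over the libraries) was the highest of the 3 in 12 libraries, Eif1 (324 to 1385) in 5, and Eif5a (347 to 929) in 3.

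Each role had its own high and low members. Among the eIF3 subunits, which together scaffold the small ribosomal subunit, Eif3m was highest at 132 CPM per kilobase and Eif3a lowest at 27.7. The eIF2 group held the eIF2 subunit genes Eif2s1, Eif2s2, and Eif2s3 and, beside them, Eif2a and Eif2d. Within it, Eif2s2, the beta subunit, was highest at 126 and Eif2d, an eIF2-independent tRNA delivery factor, lowest at 13.6. Among eIF2B subunits the range was narrower, from 13.8 for Eif2b3 to 47.6 for Eif2b2.

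Among the start codon factors, Eif1ad was lowest at 10.2 CPM per kilobase. In the eIF4F group, Eif4e3, a variant cap-binding protein, was the lowest tested member at 7.14, and the untested Eif4e1b had a level of 0.0852. The eIF4E-binding proteins had the lowest median of the role groups (6.92), from 6.23 for Eif4ebp3 to 13 for Eif4ebp1. Eif4e3, Eif5b, and Eif1ad lay within that range. In the remaining group, Eif5a was highest and Eif5b, the large-subunit joining GTPase, was the lowest tested member at 9.96.

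**Figure D1:**
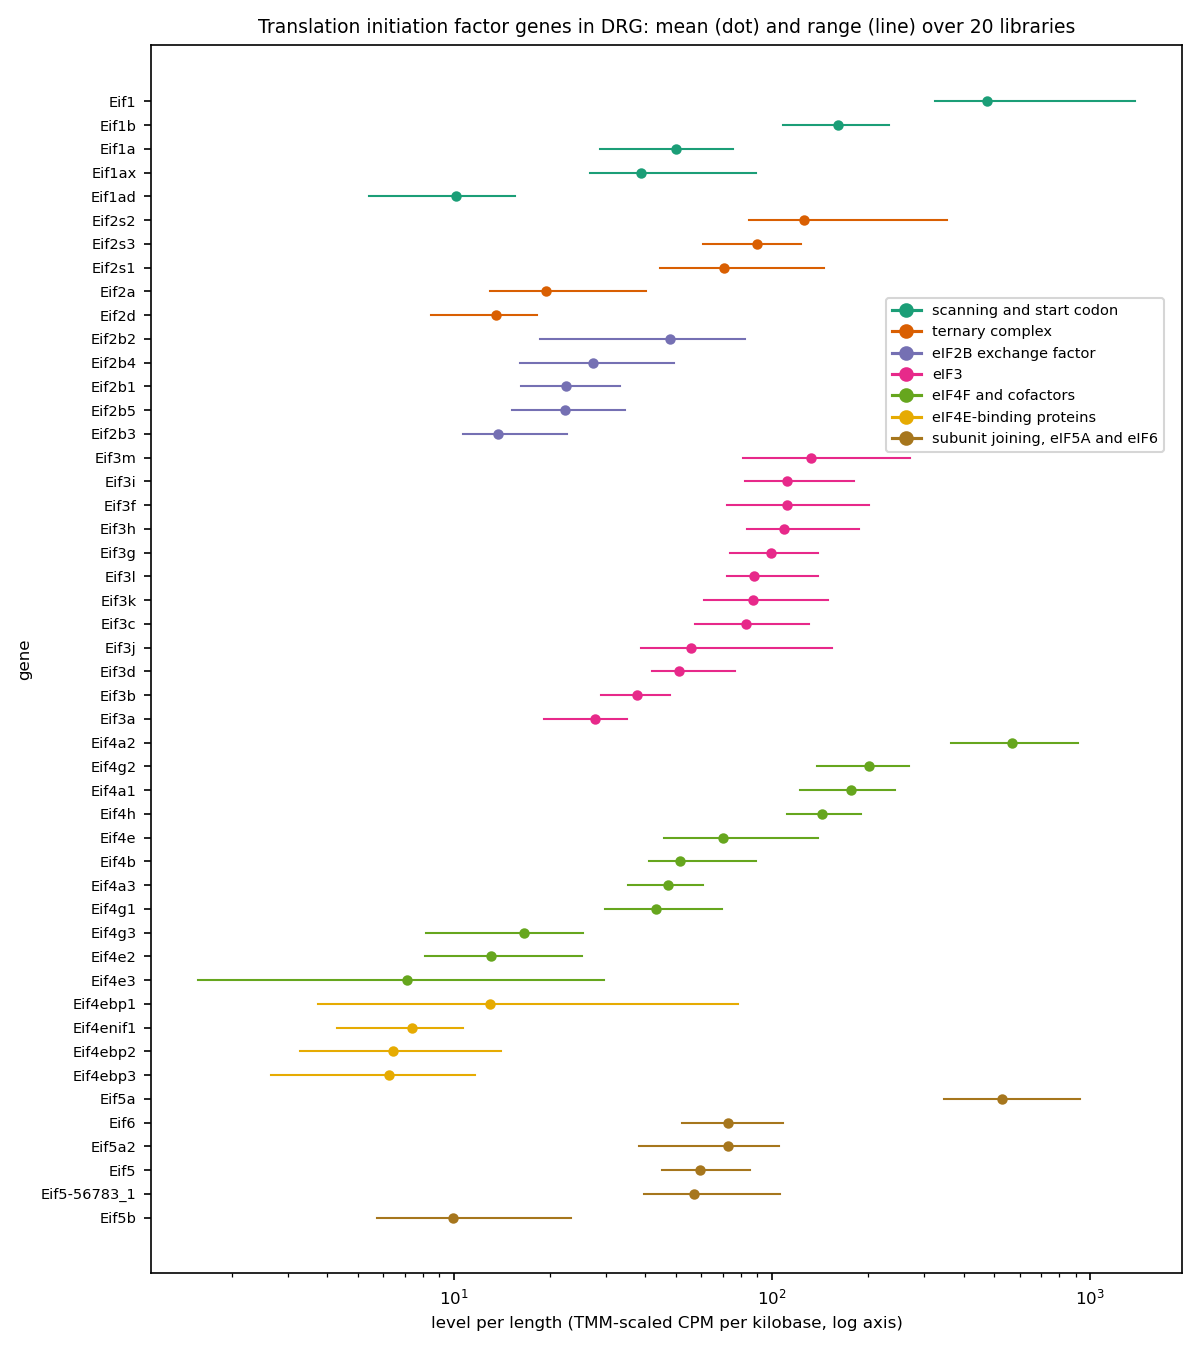
Level per length of the 48 tested translation initiation factor genes, on a log axis in TMM-scaled CPM per kilobase. Dots are means and lines are the lowest to highest of 20 libraries, colored by role. The means of Eif4a2, Eif5a, and Eif1 lie to the right of all others, and those of the eIF4E-binding proteins lie toward the left, among Eif4e3, Eif5b, and Eif1ad.

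Ratios within a library compared related genes directly. Eif4a2 was above its paralog Eif4a1 in 20 of 20 libraries, by 2.49 to 6.28 times (median 3.04). Eif5a was 4.56 to 11.8 times Eif5a2, and Eif4g1 was 1.88 to 4.64 times Eif4g3, in all 20. The cap-binding Eif4e exceeded Eif4e2, a cap-binding relative linked to translational repression, by 2.88 to 11.3 times. The pair Eif4ebp1 and Eif4ebp2 had no fixed order: Eif4ebp1 was higher in 16 of 20 libraries, and the ratio ran from 0.311 to 23.7, the highest in SOD-CT 1. The 3 Eif5 rows also split, with 59.5 CPM per kilobase for the spliced gene, 56.6 for an intronless row (written Eif5-56783_1), and 0.240 for the untested one. Reads shared among such near-identical copies could be assigned to either, so the Eif5 values are uncertain.

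The median over all 50 rows, tested or not, was taken in each library and averaged within groups. It was 56.25 ± 15.4 CPM per kilobase in SOD-CT (SD over libraries, n = 4), 46.3 ± 1.21 in SOD-CCI (n = 3), 48.33 ± 5.62 in SOD-CCI-contra (n = 3), 51.71 ± 7.93 in FOD-CT (n = 3), 53.62 ± 5.87 in FOD-CCI (n = 4), and 51.11 ± 5.27 in FOD-CCI-contra (n = 3). Every neighboring pair of groups in this order differed by less than the larger of their SDs. The SD of SOD-CT was set by SOD-CT 1. Relative to each gene's mean over the 20 libraries, the median of the 48 genes was higher by 0.62 (log2) in SOD-CT 1, and between −0.24 and 0.15 in the other 19. The median of all 14435 genes was −0.11 in SOD-CT 1. Of the 48 genes, 30 (62.5%) had their highest level of all libraries in SOD-CT 1, compared with 20% of all genes, and 3 had their lowest there. This library is the one with muscle transcripts. The part of muscle RNA in its initiation factor levels was not tested.

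**Figure D2:**
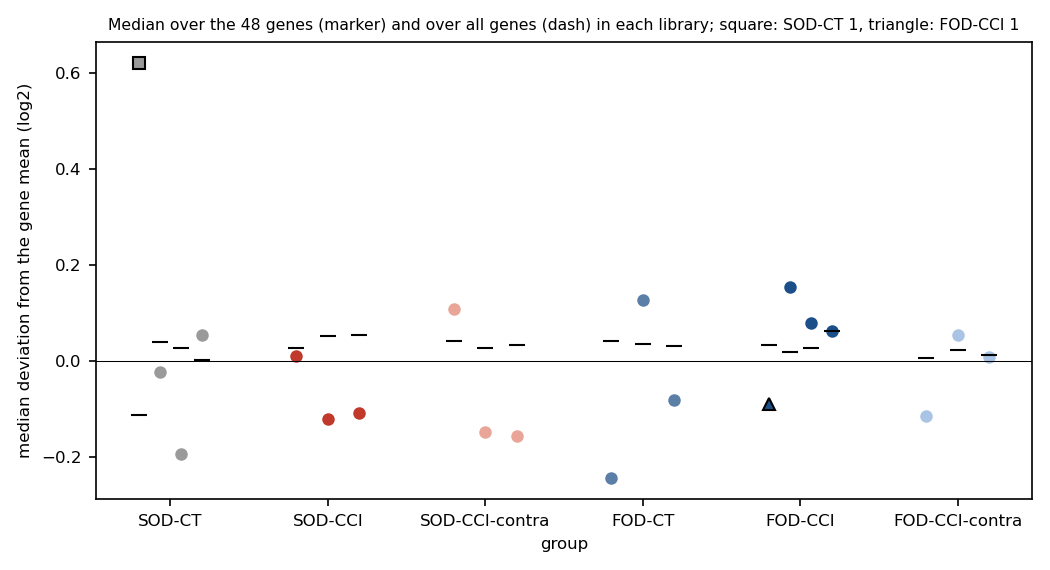
Median deviation from the gene mean (log2) of the 48 translation initiation factor genes in each of 20 libraries by group, with a dash for the median of all 14435 genes. SOD-CT 1 (square) sits at 0.62, while the other 19 libraries lie between −0.24 and 0.15, and FOD-CCI 1 (triangle) is at −0.09.

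To ask what nerve injury did to these genes under the soy oil diet, SOD-CCI was compared with SOD-CT. A gene was called at an adjusted p of at most 0.1 (edgeR quasi-likelihood test, Benjamini-Hochberg over all 14484 genes) and a fold of at least 1.2. No translation initiation factor gene was called, and neither was any other gene (percent called 0). With the DESeq2 Wald test, 2 of the 48 were called (Eif4e and Eif2s1), among 594 genes. The median log2FC of the 48 was −0.23, with 34 below 0, beside a median of −0.01 and 50.7% below 0 (49.3% above) over all genes. At an unadjusted p under 0.05, 6 of the 48 were lower (12.5%, against 8.8% of all genes) and 1 was higher (2.08%, against 5.05%). Without SOD-CT 1, the median was −0.06 with 20 of 48 above 0, 2 were lower and 2 higher at an unadjusted p under 0.05, and the all-gene shares were 4.31% and 3.76%.

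The cap-binding gene Eif4e had the smallest p. Its level was 139, 70.9, 64.5, and 117 CPM per kilobase in the 4 SOD-CT libraries and 57.5, 50.2, and 45.8 in the 3 SOD-CCI libraries. All SOD-CT libraries thus lay above all SOD-CCI libraries, and the gap between the closest was smaller than the spread within SOD-CT. The log2FC was −0.93 (SE 0.264, unadjusted p = 0.0033, edgeR adjusted p = 0.266). Without SOD-CT 1 it was −0.73 (unadjusted p = 0.00828), and leaving out each library in turn gave −1.09 to −0.73. DESeq2 gave −0.97 with an adjusted p of 0.041, and without SOD-CT 1 its adjusted p was 0.186. The second highest SOD-CT value was that of SOD-CT 4, which held 7359 CPM of muscle markers and 9289 CPM of red cell markers, against 6.279 to 191.1 and 124.8 to 425 CPM in SOD-CT 2 and SOD-CT 3. Without SOD-CT 4 the log2FC was −0.84 (unadjusted p = 0.0106). The part of these other cells in the Eif4e level was not tested.

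The alpha subunit of eIF2, Eif2s1, carries the serine that stress kinases phosphorylate. It was at 146, 88.6, 70.7, and 140 CPM per kilobase in SOD-CT and at 58.5, 57.0, and 62.7 in SOD-CCI. The groups did not overlap, and SOD-CCI was tight while SOD-CT was not. The log2FC was −0.90 (SE 0.281, edgeR adjusted p = 0.266) and −0.77 without SOD-CT 1, and the adjusted p by DESeq2 was 0.0607, a call that was lost without SOD-CT 1 (DESeq2 adjusted p = 0.258). SOD-CT 4 was again the second highest, and without it the log2FC was −0.77. The beta subunit Eif2s2 was at 355, 115, 101, and 192 in SOD-CT and 91.2, 101, and 93.5 in SOD-CCI. Its difference rested more on SOD-CT 1: the log2FC was −1.001 (SE 0.386, edgeR adjusted p = 0.308) with that library and −0.53 without. All 5 genes of the eIF2 group had a log2FC below 0, with and without SOD-CT 1, with group medians of −0.60 and −0.33.

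Eif3m, an eIF3 subunit, was at 272, 155, 94.4, and 187 CPM per kilobase in SOD-CT and 108, 97.8, and 111 in SOD-CCI, with overlap. Its log2FC was −0.74 (SE 0.292, edgeR adjusted p = 0.315), and −0.48 without SOD-CT 1. The intronless Eif5-56783_1 was at 106, 46.9, 45.6, and 80.6 in SOD-CT and 42.1, 40.6, and 45.3 in SOD-CCI, without overlap by a narrow margin. Its log2FC was −0.71 (SE 0.293, edgeR adjusted p = 0.329) and −0.45 without SOD-CT 1. The eIF4E-binding gene Eif4ebp1 had the log2FC farthest from 0 of the 48, −1.79 (SE 0.756), and it was −0.41 without SOD-CT 1, where its level was 77.9 against 8.67 to 12.4 in the other SOD-CT libraries.

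The single gene that was higher at an unadjusted p under 0.05 was Eif3c, a core eIF3 subunit. It was at 82.4, 60.9, 76.6, and 65.8 CPM per kilobase in SOD-CT and at 131, 93.7, and 93.8 in SOD-CCI. The groups did not overlap, and SOD-CT 1 was the highest of its group yet below all SOD-CCI libraries. The log2FC was 0.57 (SE 0.238, unadjusted p = 0.0308) and 0.64 without SOD-CT 1. Over the 48 genes, the groups did not overlap for 7 that were lower (14.6%, against 7.48% of all genes) and 4 that were higher (8.33%, against 10.4%). The higher ones were Eif3c, Eif3a, Eif3b, and Eif4g3, of which 3 are eIF3 subunits. The median of the 12 eIF3 subunits was −0.26, with 5 above 0, and without SOD-CT 1 it was 0.04, with 6 above 0. The 5 eIF2B subunits were all below 0 (median −0.07), and without SOD-CT 1, 3 were above 0 (median 0.18).

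**Figure D3:**
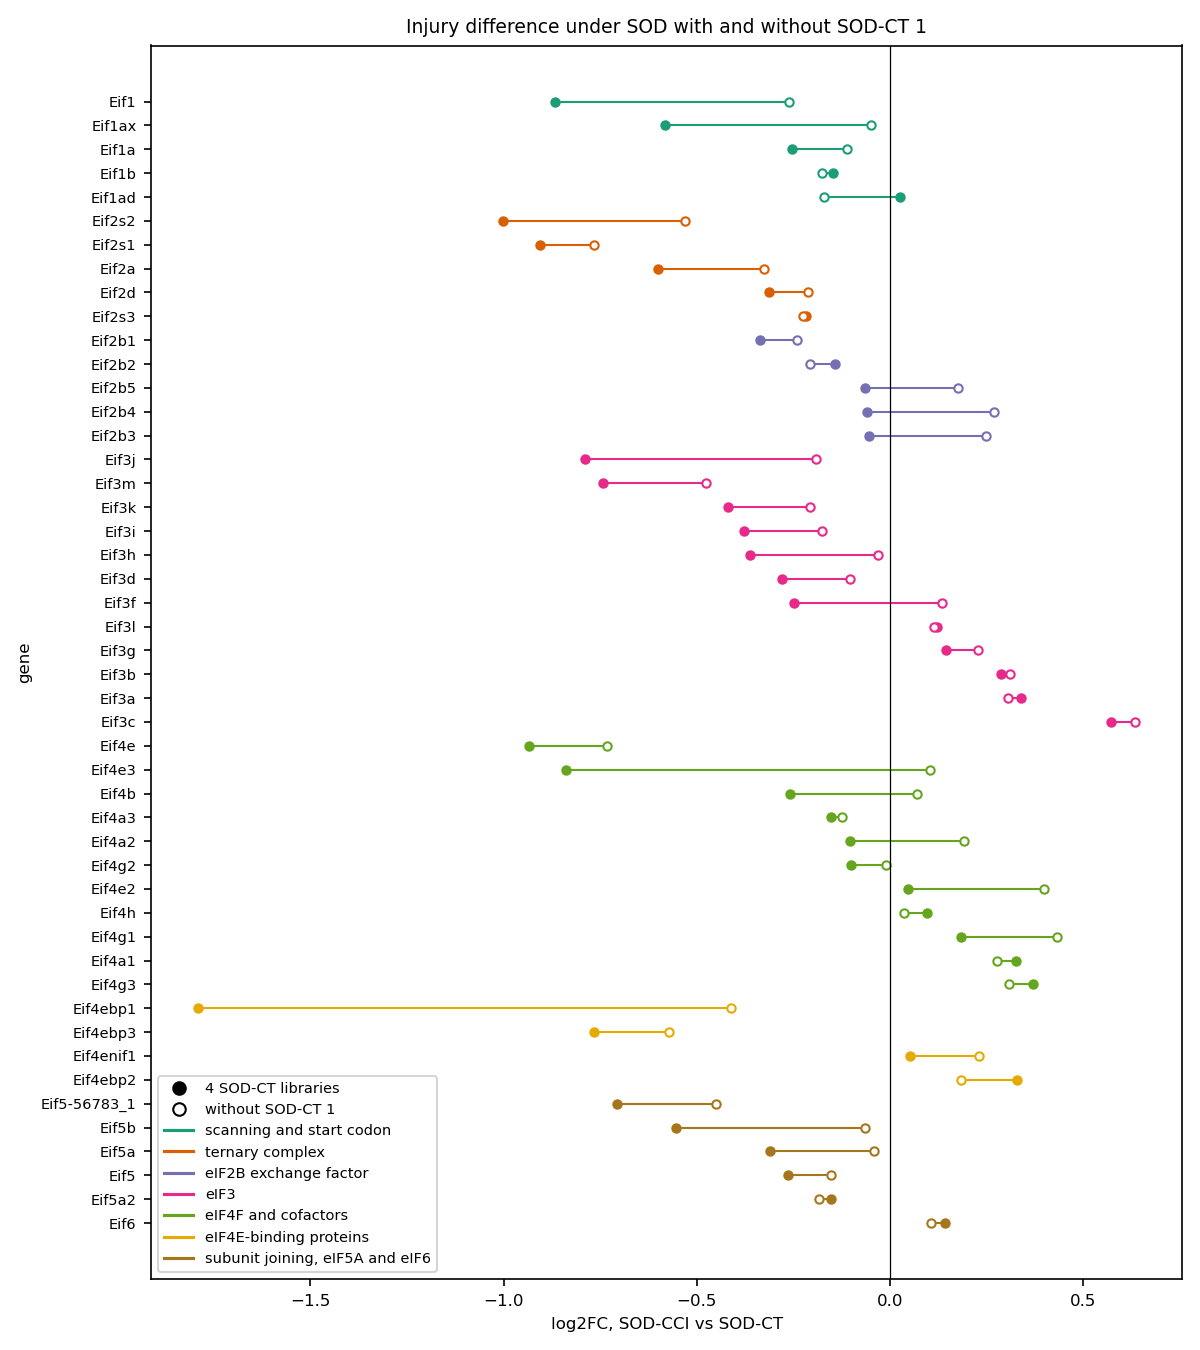
Log2FC of SOD-CCI against SOD-CT for the 48 tested translation initiation factor genes, grouped by role, with 4 SOD-CT libraries (filled) and without SOD-CT 1 (open). Eif4ebp1 moves from −1.79 to −0.41, Eif4e3 crosses 0, and Eif4e (−0.93 and −0.73) and Eif2s1 (−0.90 and −0.77) stay low.

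The 5′ flanks are shown for the 3 genes with the smallest p in this comparison, which were picked by p in these same data. RefSeq (GRCr8) gave promoters for 44 of the 50 rows, and the 250 bases before the annotated start were searched on both strands for an E-box (CACGTG), an NRF1 site, an ETS site (CCGGAAGT), a YY1 site, an NF-Y box (CCAAT), and a C/EBP-ATF response element (TGATGCAA), none of which contains another. The flanks lie at chr2:229740503-229740752 (plus strand) for Eif4e, chr6:103405630-103405879 (plus strand) for Eif2s1, and chr3:163855571-163855820 (minus strand) for Eif2s2, and capitals mark the matches.
Eif4e: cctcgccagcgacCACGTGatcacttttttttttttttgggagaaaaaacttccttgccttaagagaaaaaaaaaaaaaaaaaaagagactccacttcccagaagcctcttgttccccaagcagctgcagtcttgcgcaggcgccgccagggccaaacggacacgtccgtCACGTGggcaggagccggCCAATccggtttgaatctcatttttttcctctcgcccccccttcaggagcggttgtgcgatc
Eif2s1: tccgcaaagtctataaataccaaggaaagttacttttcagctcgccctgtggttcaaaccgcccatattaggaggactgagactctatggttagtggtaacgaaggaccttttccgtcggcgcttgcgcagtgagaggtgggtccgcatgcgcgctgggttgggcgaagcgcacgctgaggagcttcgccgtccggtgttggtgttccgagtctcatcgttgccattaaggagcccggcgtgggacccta
Eif2s2: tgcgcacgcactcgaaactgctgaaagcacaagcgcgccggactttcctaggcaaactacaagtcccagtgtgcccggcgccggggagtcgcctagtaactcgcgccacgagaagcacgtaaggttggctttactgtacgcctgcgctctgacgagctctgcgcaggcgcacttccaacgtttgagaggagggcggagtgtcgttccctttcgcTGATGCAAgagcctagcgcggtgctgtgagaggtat

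The Eif4e flank held the E-box at 2 places, beginning 237 and 80 bases before the start, and 1 NF-Y box 62 bases before it. The Eif2s1 flank held none of the motifs, and the Eif2s2 flank held 1 C/EBP-ATF element 36 bases before the start, so the 3 flanks shared no searched motif. An E-box stood in 8 of 44 flanks of initiation factor genes (18.2%), compared with 5.79% of 27457 flanks of all genes, and the ETS letters in 10 (22.7%) compared with 3.29%. The NF-Y letters were in 12 (27.3%, against 34.3%), the NRF1 letters and the C/EBP-ATF element in 1 each (2.3%, against 0.849% and 0.656%), and the YY1 letters in 0 (against 0.382%). In SOD-CCI against SOD-CT, the genes with an E-box had a median log2FC of −0.15 (8 genes) and those without −0.15 (35 genes). For the ETS letters the medians were −0.266 with (10 genes) and −0.0996 without (33 genes). For the NF-Y letters they were −0.256 with (12 genes) and −0.103 without (31 genes). These splits were not tested.

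Under the fish oil diet, FOD-CCI was compared with FOD-CT. No translation initiation factor gene was called (0 of 48, percent called 0 over all genes). By the DESeq2 Wald test 0 of the 48 were called, among 21 genes. The median log2FC was 0.07, with 29 of 48 above 0, beside 50.8% above 0 over all genes. Without FOD-CCI 1 the median was 0.101, also with 29 of 48 above 0. With all libraries, 1 gene was higher at an unadjusted p under 0.05 (2.08%, against 3.2% of all genes) and 0 lower (against 1.31%). Without SOD-CT 1, 2 were higher (Eif1a and Eif3g, against 4.63%), and without all libraries with transcripts of other tissues 2 were (Eif1a and Eif4a1, where 15% of all genes passed in either direction).

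That gene was Eif1a, which helps scanning ribosomes reach the start codon. It was at 30.3, 46.5, and 40.0 CPM per kilobase in FOD-CT and at 45.4, 75.4, 62.3, and 62.1 in FOD-CCI. The lowest FOD-CCI value, the only one below the highest FOD-CT value, belonged to FOD-CCI 1, the library whose injury markers were at the sham level. The log2FC was 0.65 (SE 0.232, unadjusted p = 0.0141, edgeR adjusted p = 1). Without FOD-CCI 1 it was 0.77 (adjusted p = 0.223), and without FOD-CCI 1 and SOD-CT 1 it was 0.75 (adjusted p = 0.0718), which passed the threshold in a setting where 596 of all genes did. This setting was chosen after the data were seen, and the adjusted p lay between 0.0718 and 1 over all settings tried. The related Eif1ax is its own row, and reads common to these near-identical genes could be assigned to either.

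The 4 next genes by p did not pass even at the unadjusted level. Eif4a1, an eIF4A helicase, was at 122, 178, and 158 CPM per kilobase in FOD-CT and 136, 219, 244, and 227 in FOD-CCI (log2FC 0.43, SE 0.225, edgeR adjusted p = 1). Eif3g was at 82.7, 93.8, and 98.9 in FOD-CT and 114, 111, 118, and 110 in FOD-CCI (log2FC 0.30, SE 0.159, edgeR adjusted p = 1). It was the only one of the 48 whose groups did not overlap (2.08%, against 2.5% of all genes higher and 2.19% lower), and it binds RNA within the eIF3 complex.

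Eif4g3, a second large eIF4G scaffold, was at 21.1, 16.3, and 16.9 CPM per kilobase in FOD-CT and 16.3, 8.19, 16.8, and 11.6 in FOD-CCI (log2FC −0.45, SE 0.239). Eif3l was at 72.2, 87.9, and 75.6 in FOD-CT and 79.0, 88.5, 101, and 104 in FOD-CCI (log2FC 0.24, SE 0.163). The groups overlapped for both genes. By role, 10 of 12 eIF3 subunits were above 0 (median 0.135), 3 of 5 genes of the eIF2 group were (median 0.06), and 1 of 4 eIF4E-binding genes was (median −0.26). The mean levels of the eIF2 subunit genes in FOD-CT and FOD-CCI were 62.4 and 57.8 CPM per kilobase (Eif2s1), 123.4 and 113.7 (Eif2s2), and 81.6 and 91.0 (Eif2s3).

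The diets were then compared after injury, FOD-CCI against SOD-CCI. No translation initiation factor gene was called (0 of 48, percent called 0). The DESeq2 Wald test called 0 of them, among 2 genes. The median log2FC was 0.16 with 36 of 48 above 0, beside 0.04 and 54.3% above 0 (45.7% below) over all genes. Without FOD-CCI 1 the median of the 48 was 0.204, with 38 above 0. The markers of cell types and other tissues are given beside this. All 5 of 5 red cell markers were above 0 (median log2FC 4.51, all at an unadjusted p under 0.05). So were 8 of 8 macrophage markers (0.758, 1 under 0.05) and 6 of 6 satellite glia markers (0.642, 0 under 0.05). The 2 spinal cord markers tested (4.57) and 5 of 5 skeletal muscle markers (0.888) were also above 0, with 0 under 0.05. Of the fibroblast markers, 4 of 5 were above 0 (0.146). Below 0 were 10 of 12 neuron markers (−0.169, 1 under 0.05) and 4 of 7 Schwann cell markers (−0.202). Summed red cell markers ran from 96.61 to 662.8 CPM in SOD-CCI and from 566.2 to 22320 in FOD-CCI, macrophage markers from 167.9 to 249.2 and 149.9 to 571.6, satellite glia markers from 4842 to 5731 and 5193 to 12370, and neuron markers from 24820 to 29750 and 20970 to 28510. The 12370 CPM of satellite glia markers was in FOD-CCI 1, a library with spinal cord transcripts, and the other FOD-CCI libraries held at most 6281. The part of other cells and tissues in the initiation factor levels was not tested. At an unadjusted p under 0.05, 1 was higher (2.08%, against 3.87%) and 1 lower (2.08%, against 1.53%). SOD-CT 1 enters this comparison only through the filter, scaling, and spread shared by the 4 left groups. Without it, 4 were higher (Eif3h, Eif1ax, Eif6, and Eif3k, against 6.62% of all genes) and 1 lower (Eif4g3, against 3.26%). Without all libraries with transcripts of other tissues, 7 were higher (Eif3f, Eif3h, Eif3d, Eif1ax, Eif1a, Eif6, and Eif4ebp1) and Eif4g3 was lower, where 12.3% of all genes passed in either direction. The groups did not overlap for 9 that were higher (18.8%, against 7.53% of all genes) and 2 that were lower (4.17%, against 7.17%).

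The lower gene was Eif4g3. It was at 21.6, 21.3, and 21.8 CPM per kilobase in SOD-CCI and at 16.3, 8.19, 16.8, and 11.6 in FOD-CCI. All FOD-CCI libraries lay below the nearly equal SOD-CCI libraries, and the FOD-CCI values ran from 8.19 to 16.8. The log2FC was −0.71 (SE 0.239, unadjusted p = 0.0105, edgeR adjusted p = 0.859), and leaving out each library gave −0.84 to −0.53. The closely related scaffold Eif4g1 also had no overlap, at 49, 57.8, and 51.3 in SOD-CCI and 38.3, 32.6, 47.6, and 43.8 in FOD-CCI.

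Eif6, which keeps the large ribosomal subunit from joining too early, was the higher one. It was at 78.7, 57.0, and 56.3 CPM per kilobase in SOD-CCI and 100.2, 76.2, 86.5, and 84.4 in FOD-CCI. SOD-CCI 1 lay within the FOD-CCI range and the other two below it. The log2FC was 0.44 (SE 0.179, unadjusted p = 0.0279, edgeR adjusted p = 0.859). Eif1a was at 49, 46, and 44.3 in SOD-CCI, against the FOD-CCI values given above (log2FC 0.40, SE 0.231). Eif3a, the largest eIF3 subunit, was at 32.4, 35.1, and 34.7 in SOD-CCI and 25.8, 22.9, 34.2, and 28.4 in FOD-CCI (log2FC −0.29, SE 0.17). Eif3k, the shortest gene of the 48, was at 66.8, 69.5, and 63.6 in SOD-CCI and 91.8, 93.2, 72.0, and 87.3 in FOD-CCI, without overlap (log2FC 0.37, SE 0.215).

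**Figure D4:**
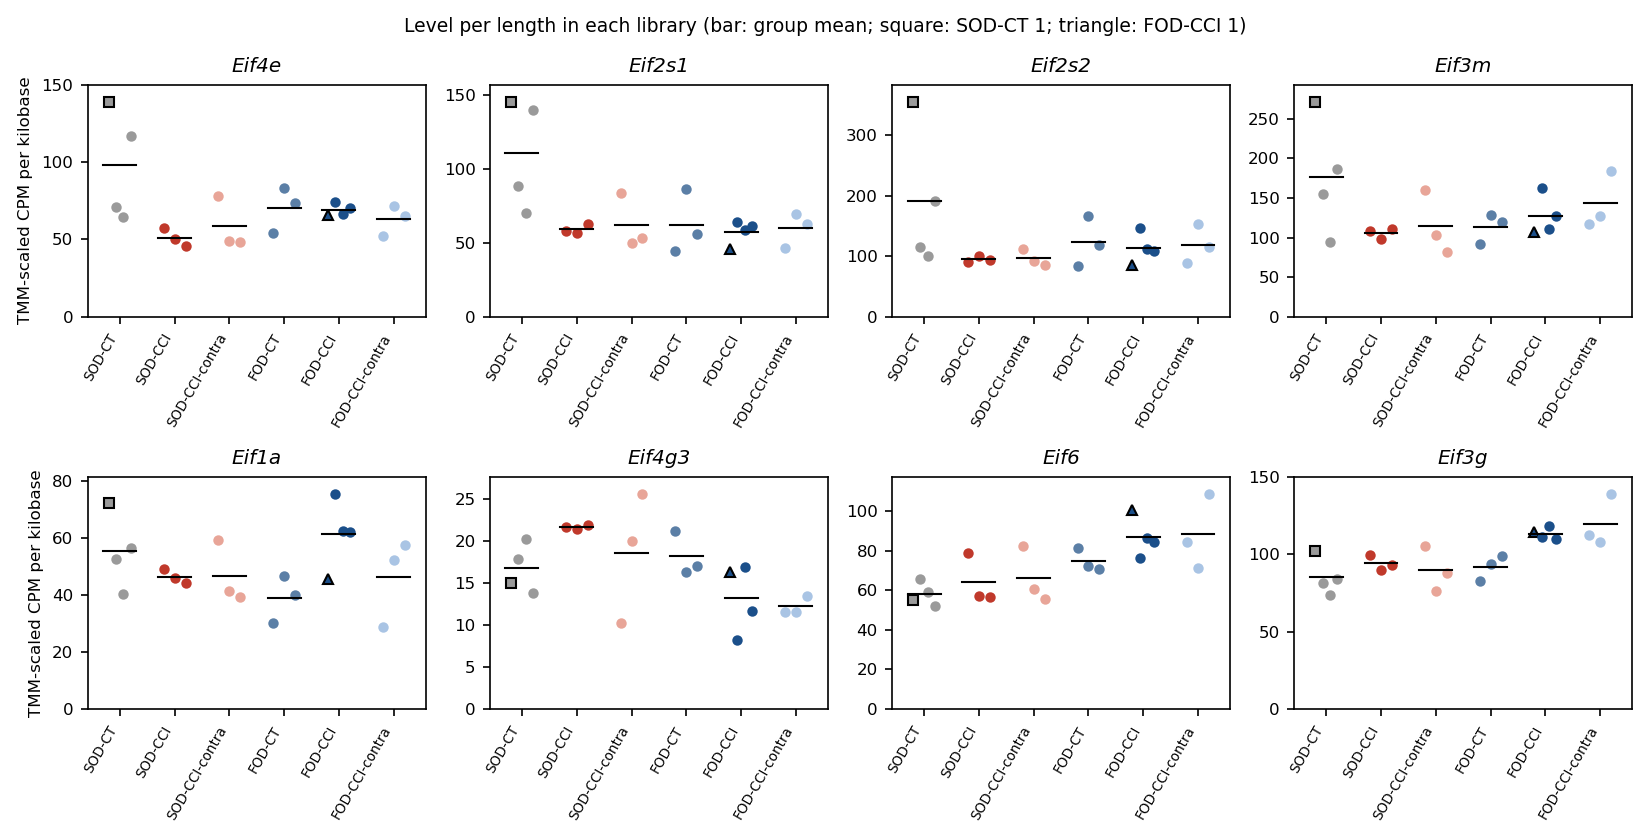
Level per length (TMM-scaled CPM per kilobase, axes from 0) of 8 translation initiation factor genes in each library of the 6 groups, with bars at group means, a square for SOD-CT 1, and a triangle for FOD-CCI 1. Eif4e and Eif2s1 lie close together in SOD-CCI, below a wide SOD-CT, Eif4g3 lies at 21.3 to 21.8 in SOD-CCI above all 4 FOD-CCI libraries, and the triangle is the lowest FOD-CCI point for Eif1a.

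Gene length was set beside the diet difference after injury. Over the 48 genes, Spearman's rho between log2FC and gene length was −0.50 in FOD-CCI against SOD-CCI, beside −0.35 over all 14484 genes (genes are not independent replicates, and no test was made). Correlations of similar size stood in other comparisons, at −0.37 for the interaction (−0.35 over all genes), 0.34 for SOD-CCI against SOD-CT (0.23), −0.34 for FOD contralateral against sham DRG (−0.32), and −0.39 between the diets on the right side (−0.25). The 24 shorter genes (up to 1824.5 bases) had a median of 0.21 with 21 above 0, and the 24 longer ones 0.15 with 15 above 0. Gene length ran from 481 bases for Eif3k to 5872 for Eif4g1 among these genes, and the 2 genes of this comparison that were lower without overlap, Eif4g3 and Eif4g1, were among the longest. When a smooth length trend was removed from each library, the correlation over all genes became 0.03, the median of the 48 genes became 0.06, and 30 of 48 were above 0. Eif4g3 then had a log2FC of −0.53 (unadjusted p = 0.0227), Eif6 of 0.29 (unadjusted p = 0.171), Eif3a of −0.12, and Eif3k changed sign to −0.17. In the interaction, the corrected median was 0.295, and 2 genes were higher and 0 lower at an unadjusted p under 0.05. Per library, each gene's deviation (log2) from its mean over the 20 libraries was correlated with gene length over all genes. This correlation ran from −0.31 in FOD-CCI-contra 3 to 0.35 in SOD-CCI-contra 3. It was 0.16 to 0.28 in the 3 SOD-CCI libraries and −0.26 to 0.00 in the 4 FOD-CCI libraries. Its origin was not tested.

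**Figure D5:**
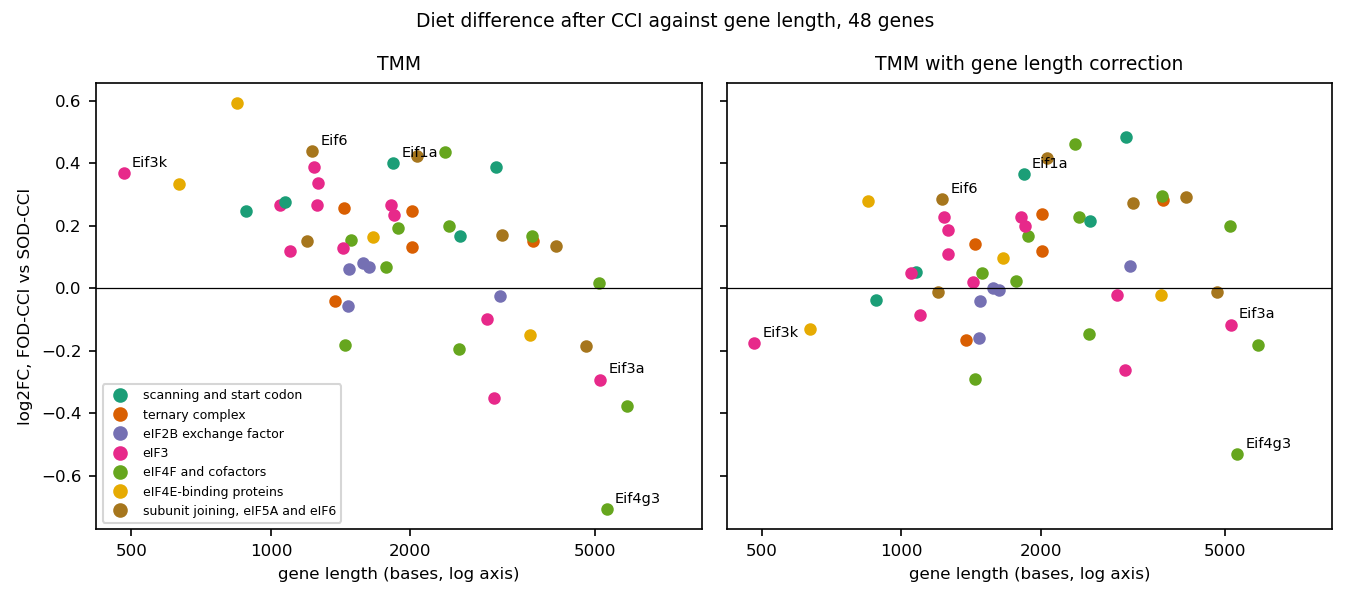
Log2FC of FOD-CCI against SOD-CCI for 48 translation initiation factor genes against gene length in bases (log axis), with TMM scaling (left) and with a length trend removed per library (right). On the left short genes such as Eif3k are above 0 and long genes such as Eif4g3 (−0.71) below, and on the right Eif3k is at −0.17 and Eif4g3 at −0.53.

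In the sham groups, FOD-CT was compared with SOD-CT, a comparison that shares its libraries with those above. No translation initiation factor gene was called (0 of 48, percent called 0, and 0 genes by DESeq2). The median log2FC was −0.14 with 37 of 48 below 0 (51.4% below and 48.6% above over all genes), and at an unadjusted p under 0.05, 4 were lower (8.33%, against 1.62%) and 1 higher (2.08%, against 1.77%). Without SOD-CT 1 the median was 0.03 with 25 of 48 above 0, so this shift rested on that library. The groups did not overlap for 2 that were higher (4.17%, against 1.9% of all genes), Eif6 and Eif4h, and for 1 that was lower (2.08%, against 1.35%), Eif2d. Eif2s1 had the smallest p: it was at 44.6, 86.7, and 55.9 CPM per kilobase in FOD-CT against 146, 88.6, 70.7, and 140 in SOD-CT, with overlap (log2FC −0.83, SE 0.281, edgeR adjusted p = 0.965, and −0.68 without SOD-CT 1). Eif4ebp2, an eIF4E-binding protein, was at 12.9, 6.27, and 5.67 in FOD-CT and 3.29, 5.90, 5.45, and 4.09 in SOD-CT (log2FC 0.82, SE 0.371). The high value was FOD-CT 1, the library with spinal cord transcripts, and FOD-CCI-contra 1, which also has them, held 14, whereas FOD-CCI 1 held 5.88. Eif3m had a log2FC of −0.64, and −0.36 without SOD-CT 1.

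Whether injury acted differently in the diets was tested as the interaction (the injury log2FC under FOD minus that under SOD). No translation initiation factor gene was called (0 of 48, percent called 0). DESeq2 called 42 genes in all and 0 of the 12 initiation factor genes to which it gave an adjusted p. The other 36 got none. The median was 0.37 with 39 of 48 above 0 (51.4% above and 48.6% below over all genes), and it was 0.12 with 36 above 0 without SOD-CT 1. Without FOD-CCI 1 it was 0.399, with 36 of 48 above 0. With all libraries, 3 were higher at an unadjusted p under 0.05 (6.25%, against 4.32% of all genes) and 1 lower (2.08%, against 0.684%). Eif1a had 0.90 (SE 0.327, edgeR adjusted p = 0.894), Eif4e 0.91 (SE 0.368), and Eif4g3 −0.83 (SE 0.338), and without SOD-CT 1 these were 0.76, 0.70, and −0.77. For Eif4e this sets the lower level in SOD-CCI beside levels of 65.7, 74.0, 66.7, and 70.4 CPM per kilobase in FOD-CCI and 53.9, 83.3, and 73.7 in FOD-CT, which overlapped.

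The left DRG was compared with the right within the rats, which leaves the sham libraries out. Of the 48 genes, 0 were called under SOD, where 0.131% of all genes were, and 0 under FOD, where 0.0137% were. DESeq2 called 0 of them in each diet, among 472 and 264 genes. At an unadjusted p under 0.05 by edgeR, 0 of the 48 were higher or lower in either diet, against 5.34% of all genes higher and 3.14% lower under SOD, and 4.3% and 2.65% under FOD. The median log2FC was −0.02 under SOD with 18 of 48 above 0 (52.2% of all genes), and 0.07 under FOD with 17 of 48 below 0 (45.7%). The first FOD rat is the one with spinal cord transcripts on both sides. Without it, 2 of the 48, Eif5b (0.61) and Eif4e2 (0.64), were higher at an unadjusted p under 0.05 under FOD. In that fit, 12% of all genes passed in either direction. Under SOD, 1 of the 48 was then lower, where 13.2% of all genes passed in either direction. Thus Eif4e and Eif2s1, which were lower in SOD-CCI than in SOD-CT, had no such difference from the other side of the same rats: the right DRG of these rats held 78.4, 49.2, and 48.3 CPM per kilobase of Eif4e and 83.9, 50.3, and 53.2 of Eif2s1.

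Under SOD, Eif1b, a relative of Eif1, had the smallest p, at 153, 111, and 133 CPM per kilobase on the left and 233, 181, and 174 on the right. It was lower on the left in 3 of 3 rats (log2FC −0.56, SE 0.27, edgeR adjusted p = 0.633). Eif3a (0.39, SE 0.226) and Eif4e2 (0.41, SE 0.25) were higher on the left in 3 of 3. Under FOD, Eif1a was at 45.4, 75.4, and 62.3 on the left and 28.8, 52.4, and 57.6 on the right, higher in 3 of 3 rats (log2FC 0.42, SE 0.192, edgeR adjusted p = 0.709). Eif2b4, a regulatory subunit of eIF2B, had 0.36 (SE 0.179) and Eif4e2 0.46 (SE 0.253), each higher in 3 of 3 rats. In all, 9 of 48 genes were higher in every rat under SOD (18.8%, against 21.4% of all genes) and 9 under FOD (18.8%, against 12.8%), while 5 (10.4%, against 19.4%) and 4 (8.33%, against 10.8%) were lower in every rat. The side difference itself did not differ between diets for any of the 48 at an unadjusted p under 0.05 (against 0.804% of all genes higher and 2.11% lower, with 0 called, percent called 0, and DESeq2 calling 0 of the 48 among 60 genes). The smallest p belonged to Eif1ad (0.59, SE 0.344), Eif2d (0.54, SE 0.324), and Eif1b (0.57, SE 0.385). Without the first FOD rat, 1 of the 48 was higher at an unadjusted p under 0.05, where 3.32% of all genes passed in either direction.

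The uninjured right DRG were set against those of sham rats, and then against each other by diet. Of the 48 genes, 0 were called in these 3 comparisons (percent called 0 in each) by edgeR, and 0 by DESeq2, which called 52, 0, and 58 genes in all. The right DRG of SOD-CCI rats were below SOD-CT, which is the control group used above, with a median log2FC of −0.22 and 34 of 48 below 0. At an unadjusted p under 0.05, 6 were lower (12.5%, against 5.98% of all genes) and 0 higher. Without SOD-CT 1 the median was 0.01 and 0 of the 48 were at an unadjusted p under 0.05. Eif4ebp1 had −2.04 (SE 0.772), and −0.64 without SOD-CT 1, at 6.82, 9.11, and 4.25 CPM per kilobase on the right. Eif2s1 had −0.86 (SE 0.33) and −0.70 without it, and Eif4e −0.77 (SE 0.315) and −0.55 without it.

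Under FOD, the contralateral and sham groups had a median log2FC of 0.03, and 0 of the 48 had an unadjusted p under 0.05 (0.907% of all genes were higher and 0.8% lower). Eif4g3 was at 11.6, 11.5, and 13.5 CPM per kilobase on the right, below the 16.3 to 21.1 of FOD-CT (log2FC −0.56, SE 0.301). Eif3g was at 112, 108, and 139, above all FOD-CT libraries (log2FC 0.40, SE 0.219), and Eif4ebp1 had −0.99 (SE 0.781). Between the diets on the right side, the median was 0.03, and 0 of the 48 had an unadjusted p under 0.05, against 4.5% of all genes higher and 2.61% lower. Without SOD-CT 1, which enters here only through the shared filter, spread, and scaling, 3 of the 48 were higher (Eif3f, Eif3h, and Eif3g, where 11.1% of all genes passed in either direction), and without all libraries with transcripts of other tissues 1 was (Eif3g, where 10.8% did). Eif3g was higher under FOD than SOD (105, 76.3, and 87.8), without overlap (log2FC 0.45, SE 0.219, edgeR adjusted p = 0.702), and Eif4ebp2 (0.92, SE 0.465) and Eif6 (0.45, SE 0.23) followed. Eif3g thus had non-overlapping higher values in FOD-CCI than in FOD-CT and SOD-CCI, and in FOD-CCI-contra than in FOD-CT and SOD-CCI-contra, comparisons that share libraries. Under FOD, contralateral and sham groups did not overlap for 2 of the 48 that were higher (4.17%, against 4.32% of all genes). For 3 that were lower they did not overlap either (6.25%, against 4.56%). Between the diets on the right side, 5 were higher without overlap (10.4%, against 7.76%) and 0 lower (against 9.18%).

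The rest of the pathway was described from a list of 35 genes (scanning and recycling cofactors, eIF2 kinases and phosphatase subunits, elongation and release factors, and regulators of cap binding). None was called in any of the 11 comparisons. In SOD-CCI against SOD-CT, 1 was higher and 3 lower at an unadjusted p under 0.05. The shares among all genes at that p were 5.05% higher and 8.8% lower. Mcts1, which works with Denr in reinitiation, had a log2FC of −1.02 (SE 0.297) and −0.94 without SOD-CT 1. Eif2ak3, which encodes the eIF2 kinase PERK of the endoplasmic reticulum, had 0.77 (SE 0.275) and 0.68 without it. Mknk2, a kinase of eIF4E, had −1.06 (SE 0.447), and −0.38 without it. The remaining lower gene, Pabpc4, a poly(A)-binding protein, had −2.62 (SE 1.11), and −0.07 without it.

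In FOD-CCI against FOD-CT, 1 of the 35 was higher at an unadjusted p under 0.05 (against 3.2% of all genes) and 0 lower (against 1.31%). It was Pabpc1, the poly(A)-binding protein, with 0.90 (SE 0.275, edgeR adjusted p = 1), followed by Eif2ak3 with 0.59 (SE 0.28) and Eef1a1, the factor that brings aminoacyl-tRNA to the ribosome, with 0.46 (SE 0.277). In FOD-CCI against SOD-CCI, 0 were at an unadjusted p under 0.05, against 3.87% of all genes higher and 1.53% lower. The smallest p belonged to Larp1 (−0.40, SE 0.231), Paip2 (0.46, SE 0.289), and Mcts1 (0.44, SE 0.292). Without SOD-CT 1, Paip1 (0.54) and Paip2 (0.47) were higher and Eif2ak4 (−0.52) lower at an unadjusted p under 0.05. Over all genes, 6.62% were then higher and 3.26% lower. Within the rats, Eif2ak3 was higher on the left by 0.96 (SE 0.275, edgeR adjusted p = 0.325) under SOD and by 1.18 (SE 0.283, edgeR adjusted p = 0.522) under FOD, so the kinase gene had the smallest p of the list on both diets while its substrate gene Eif2s1 had none under 0.05 there.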

How the data were processed

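RNA-seq of 20 DRG libraries was analysed. Libraries were made by poly(A) selection, one per DRG. The authors used fastp for trimming, HISAT2 for alignment, and featureCounts for counting (1.5.0-p3 per the submitters' processing notes). The deposited counts are whole fragments per gene. The authors also deposited FPKM, which equals count over gene length over 1 constant per library that is proportional to the DESeq2 size factor. The build, strand setting, and treatment of reads with several alignments are not given in the sources used here. The deposited gene length (other annotation) was used for levels. Rows with no gene name (3781) held 0.646% to 1.17% of counts and are part of the table tested. Column names matched the sample labels for all 20 libraries.

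The software was R 4.3.3 with edgeR 4.0.16 and DESeq2 1.42.0. A gene entered a model if 90% of its libraries or more held 10 counts or more. After TMM scaling, edgeR quasi-likelihood tests (two-sided) were run in 3 models, of the 14 left libraries, of the 12 left and right libraries of 6 rats with the rat as a block, and of the 13 sham and contralateral libraries. Calls needed an adjusted p (Benjamini-Hochberg, all genes) up to 0.1 and a fold from 1.2. The SE was the log2FC divided by the square root of F. The pairing of sides comes from the rat number in the library names, and deviations from the group means correlated by 0.132 to 0.415 in 6 of 6 rats. Same-numbered libraries of different rats correlated by more than 0.1 in every pair only between FOD-CT and FOD-CCI (0.184 to 0.419) and between FOD-CT and FOD-CCI-contra (0.163 to 0.583), 3 pairs each, a hint from the data that the labels do not explain. The highest of each, 0.419 and 0.583, joined the libraries numbered 1, which hold the spinal cord transcripts. The part of those transcripts in the correlations was not tested. The length correction removed, per library, a lowess trend (span 0.3) over gene length. The models were tested before use on simulated data with less spread between libraries than the fits found here (common dispersion 0.14 to 0.242). That test therefore does not show which changes could be found in these data. The 20 libraries came from 14 rats, with 1 library per rat within each group, and libraries of a group differed by more than sampling noise (chi-square per gene at least 28.2), and totals were 22547190 to 54437581.

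The genes, lists, and tests were chosen with earlier results of these data known. Values in each library are given for the 5 genes of smallest p in each injury comparison and in FOD-CCI against SOD-CCI, for the 3 of smallest p in the other comparisons, and the highest and lowest by length in each role are named. Other genes were named after their values were seen. The fibroblast marker Col1a2 was not found by its symbol, and no Eif3e symbol matched the rule. Alternatives were DESeq2, its size factors, no filter, the length correction, leaving out each library or those with transcripts of other tissues, a replicate block, and fits of only the groups compared.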

Additional observations from a re-analysis of the deposited data

Results flagged for a closer look

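In each group of 4 libraries (SOD-CT and FOD-CCI), 48 genes were checked for a library far from the other 3 (Dixon's 95% limit), and 13 of 96 checks met it. Chance flags about 5% of such groups, and the genes of a library are not independent checks. In SOD-CT 1, the library with muscle transcripts, 8 were high on the scale of TMM-scaled CPM per kilobase. They were Eif4b at 89.1 (others 41.0 to 44.4), Eif3h at 187 (83.9 to 94.6), Eif1ax at 88.9 (26.8 to 34.8), and Eif2d at 18.3 (13.3 to 14.1). The others were Eif2b3 at 22.6 (10.9 to 12.0), Eif4e2 at 25.3 (10.4 to 12.6), Eif4e3 at 29.6 (6.09 to 6.30), and Eif4ebp1 at 77.9 (8.67 to 12.4). SOD-CT 4 was low in Eif3b, at 29.0 (36.7 to 37.4).

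In the FOD-CCI group, FOD-CCI 1 was low in Eif5a, at 465 (567 to 573), and high in Eif4h, at 178 (139 to 146). This is the library with spinal cord transcripts and injury markers at the sham level, and their part in these values was not tested. FOD-CCI 2, which held the most red cell transcripts (22320 CPM), was high in Eif2a, at 24.8 (15.6 to 17.2), and FOD-CCI 4 was low in Eif1ad, at 6.82 (11.5 to 12.2). No interaction of diet and injury passed an adjusted p of 0.1 for any of the 48 genes by edgeR, or for any of the 12 to which DESeq2 gave one.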

How the results depend on the processing

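Of the values for single named genes, 793 kept their direction and side of the threshold under the alternatives (3 of them without an adjusted p from DESeq2), 3 passed it (Eif4e and Eif2s1 by DESeq2, and Eif1a in FOD-CCI against FOD-CT without SOD-CT 1 and FOD-CCI 1, chosen after the data were seen), and 2 reversed. Both were Eif3k in FOD-CCI against SOD-CCI, at −0.174 with the length correction and −0.156 with it and without SOD-CT 1. The number of genes called went from 0 to 2 in SOD-CCI against SOD-CT by DESeq2, and from 0 to 1 in FOD-CCI against FOD-CT without SOD-CT 1 and FOD-CCI 1.

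The median log2FC of FOD-CT against SOD-CT was 0.0651 without the libraries with transcripts of other tissues (SOD-CT 1, FOD-CT 1, FOD-CCI 1, and FOD-CCI-contra 1), and −0.307 to 0.0317 with each library left out in turn. The interaction median was 0.134 without those libraries, 0.0349 with the length correction and without SOD-CT 1, 0.133 by DESeq2 without SOD-CT 1, and 0.123 to 0.443 with each library left out. The median of contralateral against sham DRG under SOD was 0.012 without those libraries, 0.00175 with the length correction and without SOD-CT 1, and −0.318 to 0.00905 with each left out. The median level in SOD-CCI was 45.02 as deposited FPKM, beside 46.3 on the TMM scale. Leaving out each library in turn moved the median from −0.306 to −0.0559 in SOD-CCI against SOD-CT, from 0.0132 to 0.163 in FOD-CCI against FOD-CT, and from 0.116 to 0.204 in FOD-CCI against SOD-CCI.

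The replicate numbers of the left groups come from different rats, and same-numbered libraries correlated by more than 0.1 in 5 of 19 left pairs and 8 of 18 pairs of sham and contralateral libraries. Between FOD-CT and FOD-CCI, and between FOD-CT and FOD-CCI-contra, all 3 pairs did, and in no other pair of these groups. With the replicate block, those of the 48 at an unadjusted p under 0.05 went from 7 to 2 in SOD-CCI against SOD-CT, from 5 to 1 in FOD-CT against SOD-CT, and from 4 to 1 in the interaction, and none of the 48 was called. Without the block, 13.85%, 3.39%, and 5.006% of all genes passed in these comparisons. Their all-gene counts with the block are not given, so a fall particular to initiation factors was not tested. In FOD-CCI against FOD-CT the block left 1 of the 48 at an unadjusted p under 0.05 (Eif1a, log2FC 0.643, unadjusted p = 0.0291) and moved all genes from 654 to 408, and in FOD contralateral against sham DRG it left 0. Over all genes, calls in SOD-CCI against SOD-CT went from 0 to 594 by DESeq2, 119 by DESeq2 without SOD-CT 1, 67 without SOD-CT 1 and FOD-CCI 1, and 200 without the libraries with other tissues, and in FOD-CCI against FOD-CT from 0 to 21, 163, 596, and 526. Eif4e1b and 1 Eif5 row had too few counts for a test.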

Other observations

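A row described as eIF3 subunit E (LOC108348260) lies outside the rule because it carries no Eif symbol, and was looked at after the other results. Its level was 102.6 TMM-scaled CPM per kilobase over the 20 libraries. Its log2FC was −0.96 (SE 0.341, edgeR adjusted p = 0.294) in SOD-CCI against SOD-CT, 0.08 (SE 0.333) in FOD-CCI against FOD-CT, 0.27 (SE 0.335) in FOD-CCI against SOD-CCI, −0.76 (SE 0.339, unadjusted p = 0.041) in FOD-CT against SOD-CT, and 1.04 (SE 0.476, unadjusted p = 0.0469) in the interaction. Without SOD-CT 1 the first of these was −0.58.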
